A study of Homo sapiens with 30 samples.

Results

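The 33 genes described here encode the enzymes and regulators of sterol and fatty acid synthesis, taken by exact symbol from the 21112 genes measured, and all 33 were found. They comprise 18 enzymes of the sterol branch, which runs from acetyl-CoA through mevalonate and squalene to cholesterol. Another 10 belong to the fatty acid branch, which makes, elongates, desaturates and activates fatty acids. The remaining 5 are the regulators INSIG1, SREBF1, SREBF2 and SCAP and the sterol carrier STARD4, which is counted with the regulators below. RNA was sequenced from 4 cell lines of diffuse large B-cell lymphoma (DLBCL), of which HT and K422 are germinal center B-cell-like (GCB) and OCI-Ly10 and TMD8 activated B-cell-like (ABC). Cells were treated with 0.5 µM AZD8186, an inhibitor of the PI3Kβ and PI3Kδ isoforms, or with the solvent DMSO for 6, 12, 18 or 24 h, with no 12 h libraries for TMD8. This gave 30 libraries in 15 pairs of the same line and time, 8 pairs in GCB and 7 in ABC, with 1 library per line, treatment and time. Time points therefore serve as replicates, nothing in the labels says that they came from separate cultures, and each subtype rests on 2 established lines. P-values measure the spread between these libraries only.

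Total expected counts ranged from 15820230 to 23579029 per library, and the 33 genes took 0.293% to 0.722% of them. All 6 B-cell markers examined were above 1 TPM (a length-scaled share of each library's transcripts) in each line. The 6 GCB markers summed to 314 to 481 TPM in the GCB lines and to 15.2 to 50.5 TPM in the ABC lines, although 1 of them, LMO2, was under 1 TPM in both GCB lines and at 5.16 to 35.4 TPM in TMD8. The 6 ABC markers summed to 497 to 1541 TPM in the ABC lines and to 14.3 to 37 TPM in the GCB lines. T-cell markers summed to 192 to 216 TPM in K422 and to 28.3 to 32.8 TPM in HT, where CD247 had 23.4 to 29.6 TPM. In K422 the sum came from CD3D (61.6 to 87.3 TPM), CD3G (82.1 to 116) and CD247 (16.3 to 34.1). CD3E was at 0.58 to 1.65 TPM there and CD2 at 0.00 in every library. The stromal markers summed to 98.1 to 187 TPM in K422, which came from DCN, while the other 4 of the 5 genes were under 1 TPM. Myeloid markers summed to 1.28 TPM or less in every library.

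Cells control these genes through the sterol regulatory element-binding proteins, which SREBF1 and SREBF2 encode. SCAP escorts the precursors from the endoplasmic reticulum to the Golgi for cleavage when sterols are scarce, and INSIG1 retains them when sterols are plentiful. The released factors bind promoters next to NF-Y and Sp1 and raise sterol and fatty acid synthesis, and PI3K, AKT and mTOR signaling is known to favor their activity.

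The promoters of 5 of the genes are shown first, each as the 250 bases before the transcription start given by RefSeq (GRCh38.p14), written 5′ to 3′ on the gene's strand. MVK (mevalonate kinase) at chr12:109573544-109573793 on the plus strand, MSMO1 (a C4 methylsterol oxidase) at chr4:165327419-165327668 on the plus strand and SREBF2 at chr22:41832855-41833104 on the plus strand are shown because they alone of the 29 genes searched held the letters TCACNCCA, the core of a known type of sterol regulatory element. In these 3 the capitals mark that match.
MVK: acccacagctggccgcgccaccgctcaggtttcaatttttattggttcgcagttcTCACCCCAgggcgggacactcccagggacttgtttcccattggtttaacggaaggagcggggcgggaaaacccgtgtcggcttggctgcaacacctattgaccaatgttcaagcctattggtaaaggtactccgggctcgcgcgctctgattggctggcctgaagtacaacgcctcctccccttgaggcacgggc
MSMO1: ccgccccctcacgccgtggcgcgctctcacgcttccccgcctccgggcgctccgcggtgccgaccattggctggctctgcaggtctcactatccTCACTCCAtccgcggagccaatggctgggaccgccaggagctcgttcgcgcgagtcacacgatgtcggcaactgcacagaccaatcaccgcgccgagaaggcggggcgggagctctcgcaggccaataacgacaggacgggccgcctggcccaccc
SREBF2: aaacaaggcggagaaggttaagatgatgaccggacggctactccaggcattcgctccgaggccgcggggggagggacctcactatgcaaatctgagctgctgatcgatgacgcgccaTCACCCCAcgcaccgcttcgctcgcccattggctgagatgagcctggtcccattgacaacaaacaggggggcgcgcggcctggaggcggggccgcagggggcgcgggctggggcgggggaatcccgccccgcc
LSS (lanosterol synthase) at chr21:46228775-46229024 on the minus strand and TM7SF2 (a sterol C14 reductase) at chr11:65111622-65111871 on the plus strand are shown because their transcripts moved differently in the 2 subtypes. Here the capitals mark CCAAT, the NF-Y motif, read on either strand.
LSS: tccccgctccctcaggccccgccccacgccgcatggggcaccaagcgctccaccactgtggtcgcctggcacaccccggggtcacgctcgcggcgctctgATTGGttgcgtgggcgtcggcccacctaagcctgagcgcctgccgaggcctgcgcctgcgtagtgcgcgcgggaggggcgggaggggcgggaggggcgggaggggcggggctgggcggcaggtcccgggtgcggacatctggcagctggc
TM7SF2: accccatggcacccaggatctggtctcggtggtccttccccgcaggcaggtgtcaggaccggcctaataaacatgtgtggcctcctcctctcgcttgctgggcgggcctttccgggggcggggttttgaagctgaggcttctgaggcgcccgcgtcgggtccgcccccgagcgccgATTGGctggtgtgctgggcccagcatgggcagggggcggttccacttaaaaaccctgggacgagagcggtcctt
The motifs were searched on both strands, and a match is a description and not evidence of binding. RefSeq starts were matched for 29 of the 33 genes. TCACNCCA was found for 3 of the 29 (10.3%), against 3.92% of 27305 genes searched in the same window. CCAAT was found for 22 of 29 (75.9%) against 37% of all genes, and GGGCGG, the Sp1-type GC box, for 27 of 29 (93.1%) against 46.2%. CACGTG, the E-box, was found for 4 of 29 (13.8%) against 7.73%. A gene was counted if any of its RefSeq starts had a match. By branch, CCAAT was found for 13 of 15 sterol genes, 6 of 9 fatty acid genes and 3 of 5 regulators.

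Most of the 33 genes were expressed in every line, and a few were not. In DMSO the highest median of the 33 genes in each line was that of FDPS (farnesyl diphosphate synthase), at 409 TPM in K422, 340 in HT, 249 in OCI-Ly10 and 184 in TMD8. FDFT1 (squalene synthase) had medians of 222 TPM in K422, 240 in HT, 132 in OCI-Ly10 and 159 in TMD8. FASN (fatty acid synthase) was at 203 to 249 TPM in K422, above its range of 50.4 to 92.8 TPM in the other 3 lines, which overlapped each other. No test was made of levels between lines, where every line is a single culture model.

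DHCR7, which makes cholesterol from 7-dehydrocholesterol in the last step of one route, lies at chr11:71428193-71452868 on the minus strand (GENCODE 29, GRCh38). In OCI-Ly10 its rounded expected counts were 1, 0, 0 and 2 with DMSO and 0 in all 4 libraries with AZD8186, so that no fold change was computed. In DMSO it had 56.1 to 103 TPM in TMD8, 52.9 to 83.8 in K422 and 41.7 to 74.7 in HT, and these 3 ranges overlapped. The upstream genes of the pathway were present in OCI-Ly10, for example EBP at 46.2 to 58 TPM and NSDHL at 57.2 to 59.3 TPM in DMSO.

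FADS2, the delta-6 desaturase that starts the synthesis of long polyunsaturated fatty acids, also divided the lines, though not by subtype. Its DMSO medians were 75.5 TPM in OCI-Ly10 and 66.4 in K422, whose ranges overlapped, against 0.955 in HT and 0.29 in TMD8. FADS1, the delta-5 desaturase, was ordered K422 (31.3 TPM), OCI-Ly10 (17.9), HT (5.73) and TMD8 (1.57), and these 4 ranges did not overlap. FADS1 and FADS2 share exon bases on opposite strands of chromosome 11, and whether counting used strand is not given in the sources used here. ACSS2, which makes acetyl-CoA from acetate, was at 1.76 to 4.37 TPM in the DMSO libraries of the ABC lines and at 0.00 to 0.31 TPM in those of the GCB lines. SREBF1 was at 18.9 to 29.7 TPM in the GCB lines, 7.49 to 10.7 in OCI-Ly10 and 1.2 to 3.41 in TMD8.

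**Figure D1:**
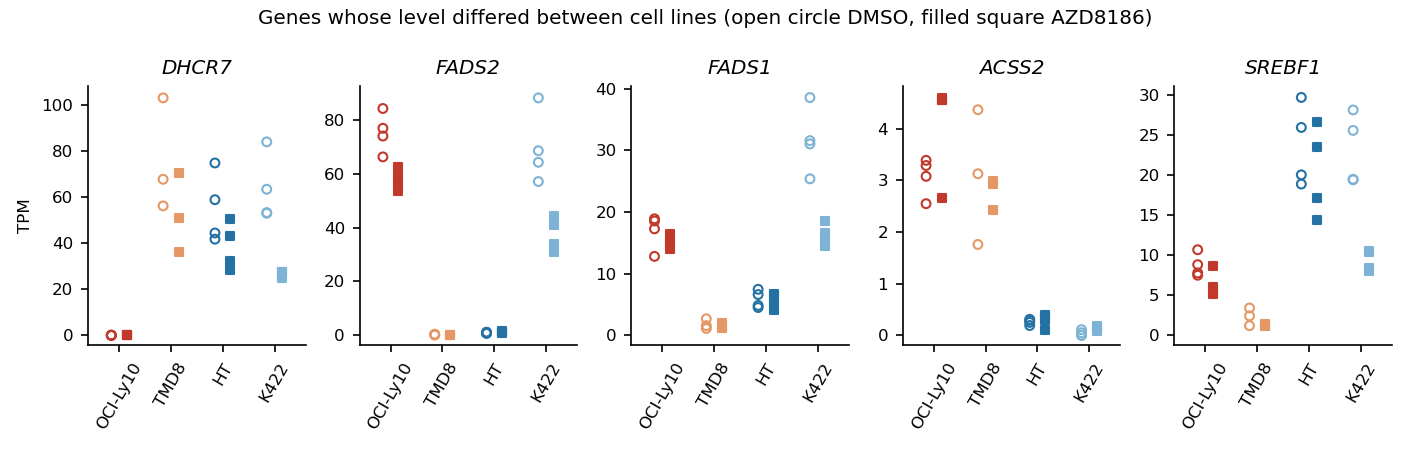
TPM (y axis) of 5 genes in each library, by cell line (x axis), with open circles for DMSO and filled squares for AZD8186. DHCR7 lies at or near 0 in OCI-Ly10, FADS2 is under 2 TPM in TMD8 and HT, and ACSS2 is under 1 TPM in both GCB lines.

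In the GCB lines AZD8186 lowered nearly the whole set. By edgeR's quasi-likelihood test with line and time as terms, at an adjusted p (Benjamini-Hochberg over all genes) under 0.05, 28 of the 32 genes tested fell and 1 rose. Of all 10965 genes tested, 23.5% were lower and 25.9% were higher. Lower were 16 of 18 sterol genes, 9 of 9 fatty acid genes tested and 3 of 5 regulators, with medians of -0.43, -0.48 and -0.49 (log2 fold change), against 0.025 over all genes. ACSS2 had too few counts to be tested. In bulk RNA, less RNA per cell and fewer cells expressing a gene cannot be told apart.

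SCD, the desaturase that makes oleate, fell most among the 32, by 0.90 ± 0.10 (log2, standard error, adjusted p = 8.92e-06, edgeR), and in 8 of 8 pairs. In K422 it stood at 148, 117, 162 and 210 TPM at 6, 12, 18 and 24 h with DMSO and at 88.6, 51.4, 59.2 and 61.9 TPM with AZD8186. In HT it stood at 114, 83.3, 96.4 and 141 TPM with DMSO and at 72.8, 52, 67.8 and 87.1 TPM with AZD8186. The K422 arms did not overlap, while in HT the highest treated library exceeded the lowest control.

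The other fatty acid genes tested were also lower in the GCB fit, but HT and K422 did not move alike for all of them. ELOVL6, which elongates palmitate, fell by 0.70 ± 0.072 (adjusted p = 3.7e-06, edgeR). FASN fell by 0.66 ± 0.092 (adjusted p = 4.45e-05) and ACLY, which supplies cytosolic acetyl-CoA, by 0.42 ± 0.066 (adjusted p = 0.000115), each in 8 of 8 pairs. ACACA (acetyl-CoA carboxylase 1) fell by 0.19 ± 0.052 (adjusted p = 0.00766) and lost its call without the 6 h pairs (-0.13, adjusted p = 0.0607). ELOVL5, FADS1, FADS2 and the acyl-CoA ligase ACSL3 fell by 0.28, 0.48, 0.51 and 0.17. FADS1 fell in K422 (-0.84) and did not pass in HT (-0.042, adjusted p = 0.825). The FADS2 value came from K422 (-0.79, against 0.38 in HT), with 4 pairs lower and 4 higher. Its call was lost with DESeq2 (-0.27, adjusted p = 0.303) and without the K422 12 h or 18 h pair. FEN1, which shares exon bases with FADS2 on the same strand, fell by 0.37 in GCB. ACSL3 lost its call in 4 of the 8 fits that each left out 1 pair. With a treatment term for each line, ACACA and ACSL3 passed in neither HT nor K422.

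Within the sterol branch the falls in GCB ranged from 0.21 to 0.80. DHCR7 fell by 0.80 ± 0.11 (adjusted p = 3.53e-05, edgeR). In K422 it stood at 53.2, 52.9, 63.3 and 83.8 TPM with DMSO and at 27.4, 24.8, 27.4 and 26.9 TPM with AZD8186. HMGCS1, an early enzyme of the mevalonate route, fell by 0.65 ± 0.10 (adjusted p = 0.000137) and MSMO1 by 0.58 ± 0.075 (adjusted p = 2.47e-05). MSMO1 in HT stood at 40, 52.6, 64.3 and 94.5 TPM with DMSO and at 30.6, 39.6, 50.5 and 63.1 TPM with AZD8186, so each treated library lay below its own control although the arms overlapped. SQLE (squalene epoxidase) and LSS, the enzymes on either side of 2,3-oxidosqualene, fell by 0.50 and 0.51. EBP, HSD17B7, MVD, NSDHL, ACAT2, IDI1, MVK, FDPS, CYP51A1, FDFT1 and PMVK fell by 0.53 to 0.21. ACAT2 shares exon bases with TCP1 on the opposite strand, and TCP1 also fell in GCB (-0.52). MVK likewise shares exon bases with MMAB on the opposite strand, and MMAB fell in GCB (-0.18). SC5D (-0.10, adjusted p = 0.217) and TM7SF2 (0.055, adjusted p = 0.505) did not pass.

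Among the regulators in GCB, SREBF1 fell by 0.69 ± 0.14 (adjusted p = 0.000781, edgeR), STARD4, a sterol transport protein, by 0.57 ± 0.11 (adjusted p = 0.000831) and INSIG1 by 0.49 ± 0.11 (adjusted p = 0.00225). SREBF2 had a difference of 0.035 (adjusted p = 0.629). SCAP rose by 0.39 ± 0.075 (adjusted p = 0.000541), in 8 of 8 pairs. In K422 SCAP stood at 65.2, 58.6, 51.5 and 57.6 TPM with DMSO and at 81.7, 72.3, 79.4 and 92.2 TPM with AZD8186, with no overlap of the arms.

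**Figure D2:**
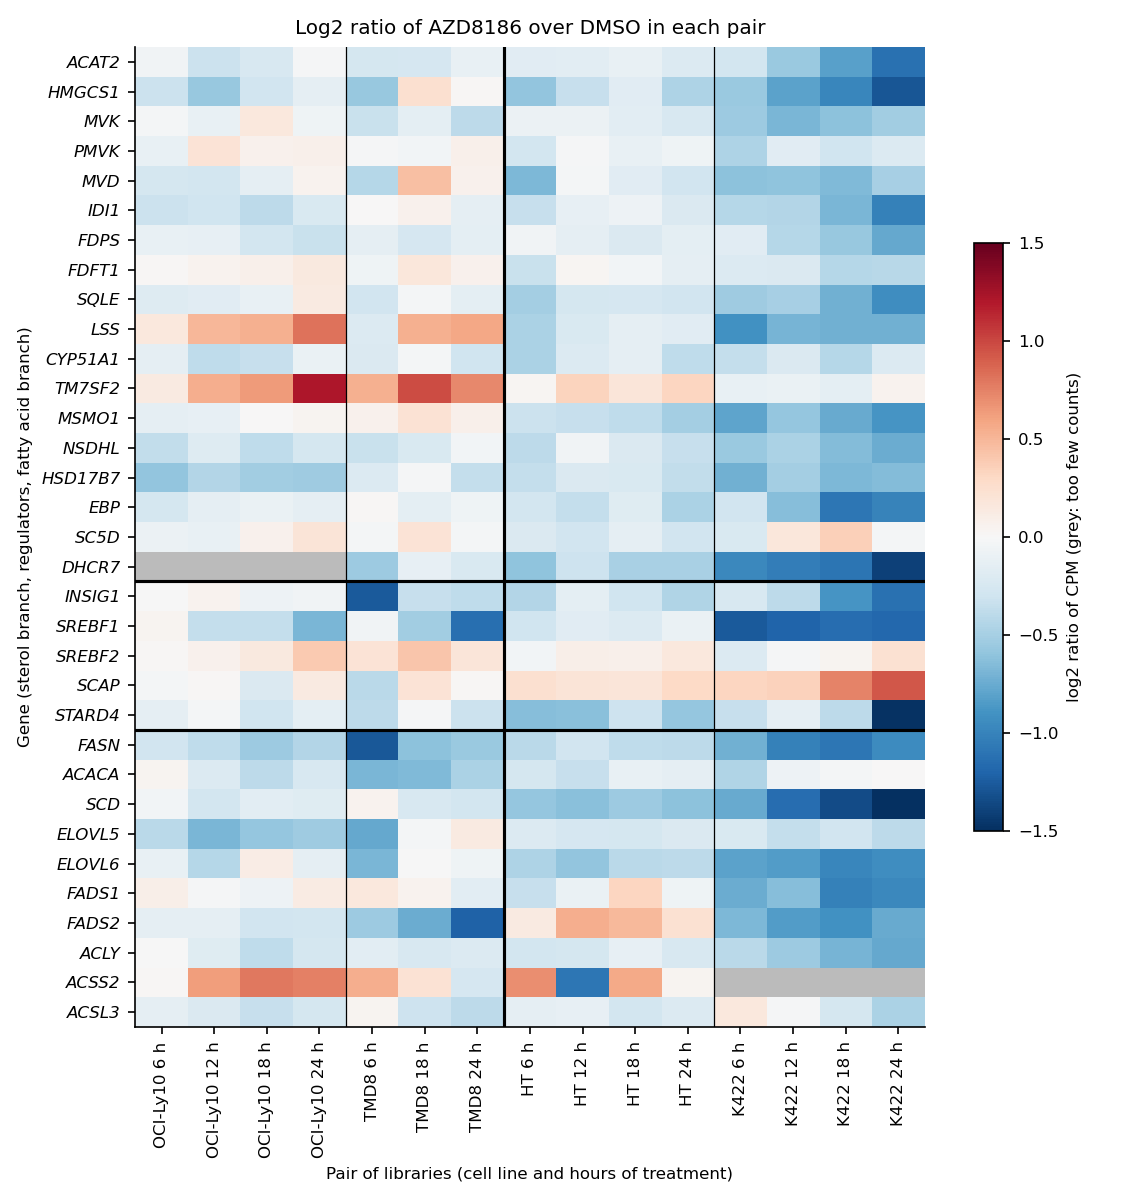
Log2 ratio of depth-scaled counts, AZD8186 over DMSO, for each of the 33 genes (rows, by branch) in each of the 15 pairs (columns), with blue for lower and red for higher under AZD8186. K422 is blue for most genes at every time, and TM7SF2 is red in all 7 ABC pairs.

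In the ABC lines fewer genes passed. In the same test 10 of 32 genes fell and 4 rose, where 13.8% of all 11419 genes tested were lower and 15.3% higher. The rises were no more frequent than among all genes, and nothing particular to the set is read from their number. Lower were 5 of 10 fatty acid genes, 4 of 17 sterol genes and 1 of 5 regulators, and the medians were -0.21, -0.12 and -0.19 against 0.0072 over all genes. Whether the branches differ from each other was not tested. On the log2(TPM + 1) scale, where the median of all genes was itself -0.15, 23 genes were lower and 1 higher, so the split in ABC depends on the scaling. The share of all genes called on that scale is not given here, so these counts lack a background. The share of counts from ribosomal protein genes was higher with AZD8186 (median 23.9%, against 19.1% with DMSO, in ABC). Leaving those genes and ribosomal RNA out of the edgeR fit left 10 lower and 4 higher, with the share of all genes called also not given. They were not left out on the TPM scale, so this fit does not bear on the counts there.

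FASN fell in ABC by 0.57 ± 0.10 (adjusted p = 0.00114, edgeR), in 7 of 7 pairs. In OCI-Ly10 it stood at 56.2, 86.6, 87.3 and 86.3 TPM with DMSO and at 47.4, 57.9, 50.8 and 51.8 TPM with AZD8186. In TMD8 it stood at 50.4, 56.7 and 82.4 TPM at 6, 18 and 24 h with DMSO and at 19.7, 30.3 and 44.9 TPM with AZD8186. Every treated library lay below its own control, and the TMD8 arms did not overlap. SREBF1 (-0.43), ELOVL5 (-0.40), HSD17B7 (-0.38), ACACA (-0.36), NSDHL (-0.25), ACSL3 (-0.23), CYP51A1 (-0.22), ACLY (-0.20) and FDPS (-0.19) also fell. Of these, SREBF1 lost its call in 5 of the 7 fits that each left out 1 pair. SCD (-0.15, adjusted p = 0.0773) and ELOVL6 (-0.16, adjusted p = 0.316) did not pass in ABC.

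TM7SF2 and LSS rose in ABC. TM7SF2 rose by 0.70 ± 0.10 (adjusted p = 0.000337, edgeR), in 7 of 7 pairs. In OCI-Ly10 it stood at 10.3, 13.6, 14.6 and 15.3 TPM with DMSO and at 11.6, 17.4, 19.4 and 29.1 TPM with AZD8186. In TMD8 it stood at 11.4, 18.4 and 28.3 TPM with DMSO and at 15.5, 30 and 37.5 TPM with AZD8186. The arms overlapped in both lines, since levels also differed between times. TM7SF2 shares exon bases with VPS51 on the same strand (chromosome 11), and VPS51, a subunit of a vesicle tethering complex, rose by 0.33 in ABC and by 0.39 in GCB. In HT and K422 VPS51 rose by 0.44 and 0.36 while TM7SF2 did not pass (0.22 and -0.076). The part of VPS51 in the TM7SF2 value was not tested.

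LSS rose by 0.42 ± 0.1 in ABC (adjusted p = 0.00688, edgeR), in 6 of 7 pairs. In OCI-Ly10 it stood at 53.3, 71.5, 59.4 and 60 TPM with DMSO and at 61.6, 88.8, 73.6 and 86.8 TPM with AZD8186. In TMD8 the 6 h pair was lower (38.7 and 31.3 TPM) and the other pairs higher (28.7 and 34, then 42.4 and 51.1 TPM). SREBF2 (0.21 ± 0.063) and ACSS2 (0.39 ± 0.13) rose as well, with adjusted p of 0.0226 and 0.0308. On the log2(TPM + 1) scale TM7SF2 kept its call (0.46), while LSS (0.22, adjusted p = 0.0673), ACSS2 (0.15) and SREBF2 (0.0089) did not. ACSS2 and SREBF2 also lost their calls in 5 and 3 of the 7 fits that each left out 1 pair, so that 2 genes rose without the OCI-Ly10 18 h, the OCI-Ly10 24 h or the TMD8 18 h pair. Shares over all genes are not given for those fits.

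**Figure D3:**
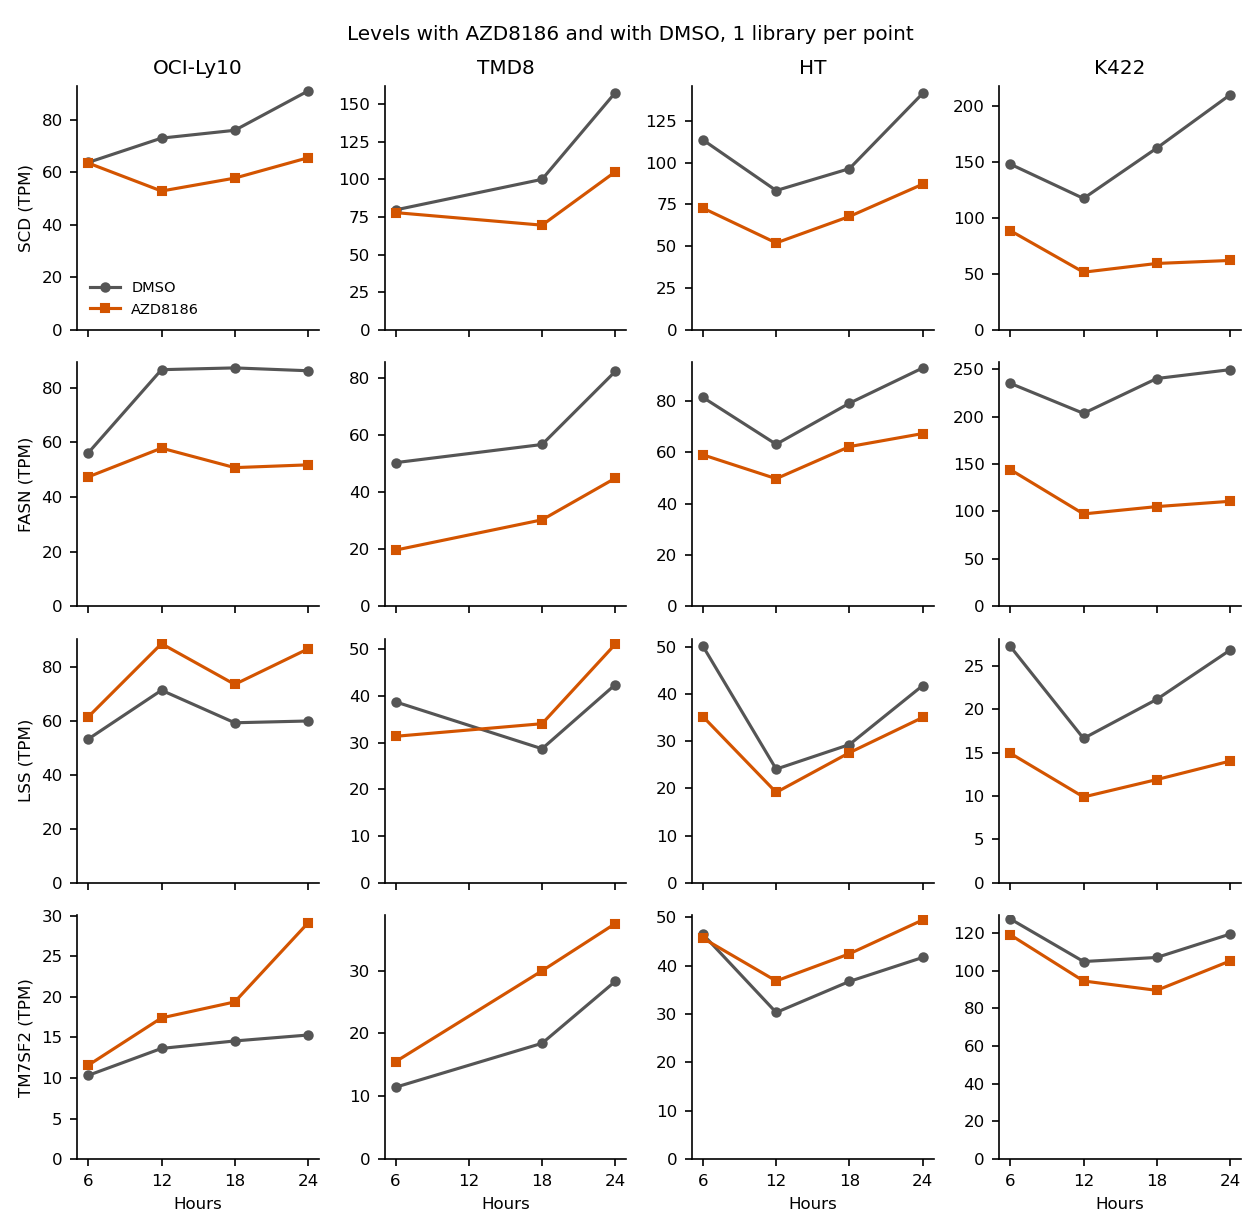
TPM (y axis, from 0) of SCD, FASN, LSS and TM7SF2 against hours of treatment (x axis) in each line, with grey circles for DMSO and orange squares for AZD8186 and 1 library per point. FASN is lower with AZD8186 at every point, and LSS is lower at every point in HT and K422 but higher at most points in OCI-Ly10 and TMD8.

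The difference of the response between the subtypes was tested directly in a fit of all 30 libraries with 1 treatment term per line and the pair as a block. Of 31 genes compared, 15 responded lower in GCB than in ABC and 1 higher, where 7.42% of all 12910 genes were lower and 8.4% higher. DHCR7 and ACSS2 were not compared, since in OCI-Ly10 and K422 respectively the median count of an arm was 3 or fewer. The genes were 11 of 17 sterol genes and 4 of 9 fatty acid genes, and SCAP among the regulators. LSS differed by -0.91 ± 0.11 (adjusted p = 3.32e-05, edgeR), SCD by -0.74 ± 0.093 (adjusted p = 4.04e-05), TM7SF2 by -0.64 ± 0.11 (adjusted p = 0.000853) and MSMO1 by -0.61 ± 0.062 (adjusted p = 4.91e-06). The SCAP difference was 0.44 ± 0.10 (adjusted p = 0.00593). The contrast averages the lines of a subtype and so compares these lines only. For some genes HT had values like those of the ABC lines. ACLY had -0.22 in HT, against -0.60 in K422 and -0.20 in both OCI-Ly10 and TMD8. FADS1 had -0.042 in HT, against -0.84 in K422, 0.035 in OCI-Ly10 and -0.0079 in TMD8. HMGCS1 had -0.39 in HT, near the -0.32 of OCI-Ly10, against -0.90 in K422 and -0.10 in TMD8. For MVK (-0.15) and IDI1 (-0.19) the HT value lay between those of the ABC lines. FASN (-0.041, adjusted p = 0.874), CYP51A1 (-0.089, adjusted p = 0.47) and ACSL3 (0.065, adjusted p = 0.72) had small differences that did not pass. On the log2(TPM + 1) scale, where the median of all genes was 0.10, 6 genes were lower and 1 higher, and shares over all genes are not given for it.

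**Figure D4:**
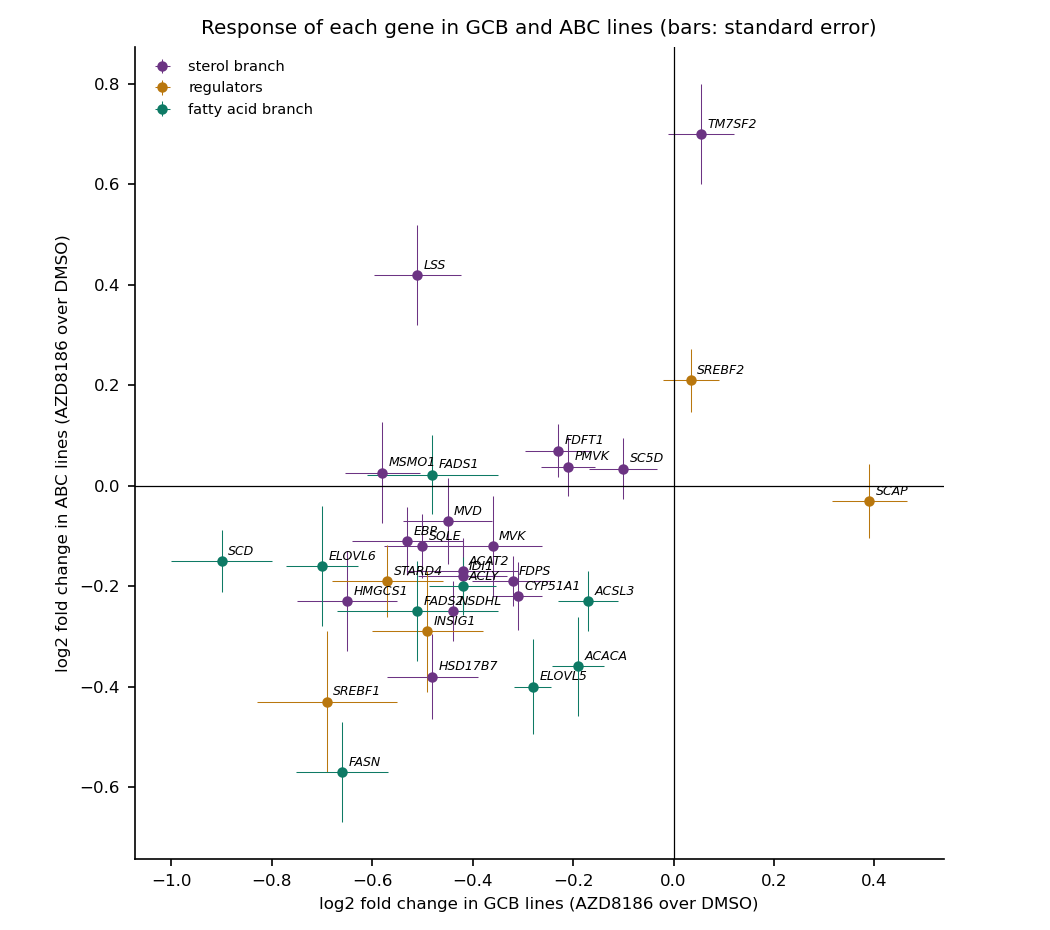
Log2 fold change of AZD8186 over DMSO in the GCB lines (x axis) against the ABC lines (y axis) for the 31 genes tested in both, with bars for the standard error and colors for the branch. LSS lies at -0.51 in GCB and 0.42 in ABC, and FASN is low in both (-0.66 and -0.57).

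Taken line by line, K422 responded with most of the genes. There 26 of 32 genes fell and 1 (SCAP) rose, against 20.2% lower and 22.7% higher among all 12910 genes. SREBF1 and SCD each fell by 1.19, DHCR7 by 1.13, FASN by 0.94, HMGCS1 by 0.90 and ELOVL6 by 0.89. SREBF1 in K422 stood at 19.4, 19.5, 25.6 and 28.1 TPM with DMSO and at 8.36, 7.98, 10.4 and 10.6 TPM with AZD8186, a difference present from 6 h. CYP51A1 (-0.30) and PMVK (-0.28) fell least among the sterol genes that passed, and ACACA (-0.14) and ACSL3 (-0.15) did not pass.

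In HT 14 of 33 genes fell and 1 (FADS2) rose, against 7.44% lower and 9.17% higher among all genes. Without the pair as a block 6 fell and 0 rose. Leaving out the HT 24 h pair left 5 lower, leaving out the TMD8 6 h pair gave 18, and HT fitted alone gave 25 lower and 2 higher. Shares over all genes are not given for these other fits. SCD fell by 0.59 ± 0.09 (adjusted p = 0.000315, edgeR), STARD4 by 0.54, DHCR7 by 0.47, ELOVL6 by 0.46 and both HMGCS1 and MSMO1 by 0.39. FADS2 rose by 0.38 (adjusted p = 0.0496, edgeR), from counts of 31, 37, 52 and 46 with DMSO to 36, 48, 81 and 66 with AZD8186. It did not pass with DESeq2.

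K422 and HT differed in 17 of 32 genes, all lower in K422, where 5.83% of all genes were lower and 4.76% higher. Without the block 5 were lower, and without the HT 18 h or the K422 18 h pair 9 were lower. The shares over all genes are not given for these fits. FADS2 differed by -1.17 (adjusted p = 4.37e-05, edgeR), with low counts in HT. SREBF1 differed by -1.0 ± 0.14 (adjusted p = 0.000446), FADS1 by -0.80 ± 0.12 (adjusted p = 0.000683), DHCR7 by -0.66 ± 0.11 (adjusted p = 0.00279) and SCD by -0.60 ± 0.13 (adjusted p = 0.00683). In HT SREBF1 stood at 18.9, 20, 25.9 and 29.7 TPM with DMSO and at 14.4, 17.1, 23.5 and 26.7 TPM with AZD8186, a difference of -0.19 that did not pass (adjusted p = 0.213). CYP51A1 (-0.005), STARD4 (-0.043) and ACSL3 (0.034) had differences between K422 and HT within their standard errors.

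In OCI-Ly10 9 of 32 genes fell and 3 rose, against 11.5% lower and 11.3% higher among all genes. ELOVL5 fell by 0.54, HSD17B7 by 0.52, FASN by 0.41, SREBF1 by 0.33, IDI1 by 0.30, NSDHL by 0.29, CYP51A1 by 0.24 and both FADS2 and ACLY by 0.20. TM7SF2 rose by 0.67, ACSS2 by 0.57 and LSS by 0.51. Leaving out the OCI-Ly10 18 h pair left 4 lower, a fit for which the share over all genes is not given. INSIG1, at 93.4 to 110 TPM with DMSO and 75.7 to 100 with AZD8186, had a log2 fold change of -0.017 (adjusted p = 0.956).

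In TMD8 7 of 33 genes fell and 2 rose, against 7.63% lower and 9.26% higher among all genes, and without the block 4 fell and 1 rose. FADS2 fell by 1.10 (adjusted p = 0.0382, edgeR), but from counts of only 5, 14 and 19 with DMSO to 3, 7 and 7 with AZD8186. FASN fell by 0.81, INSIG1 by 0.66, SREBF1 by 0.63, ACACA by 0.60, DHCR7 by 0.30 and MVK by 0.29. TM7SF2 rose by 0.76 and SREBF2 by 0.27. INSIG1 stood at 57.6, 36.6 and 55.1 TPM with DMSO and at 22.5, 23.5 and 34.1 TPM with AZD8186, with no overlap. The library share of ribosomal RNA and related genes was highest in the TMD8 AZD8186 library at 6 h (5.48%, against 0.905% to 5.48% over all), and leaving out its pair, or the TMD8 24 h pair, left 4 genes lower in TMD8. Without the TMD8 18 h pair 1 gene rose. For the fits without the block or without a pair, shares over all genes are not given.

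OCI-Ly10 and TMD8 were not shown to differ. By edgeR 0 of 32 genes passed in either direction (0.31% lower and 0.589% higher among all genes), 8 had an unadjusted p under 0.05, and DESeq2 called 0. Leaving out the TMD8 6 h pair gave 1 gene higher in TMD8, ELOVL5 (0.60, adjusted p = 0.00171). Shares over all genes are not given for the unadjusted count, for DESeq2 or for that fit.

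**Figure D5:**
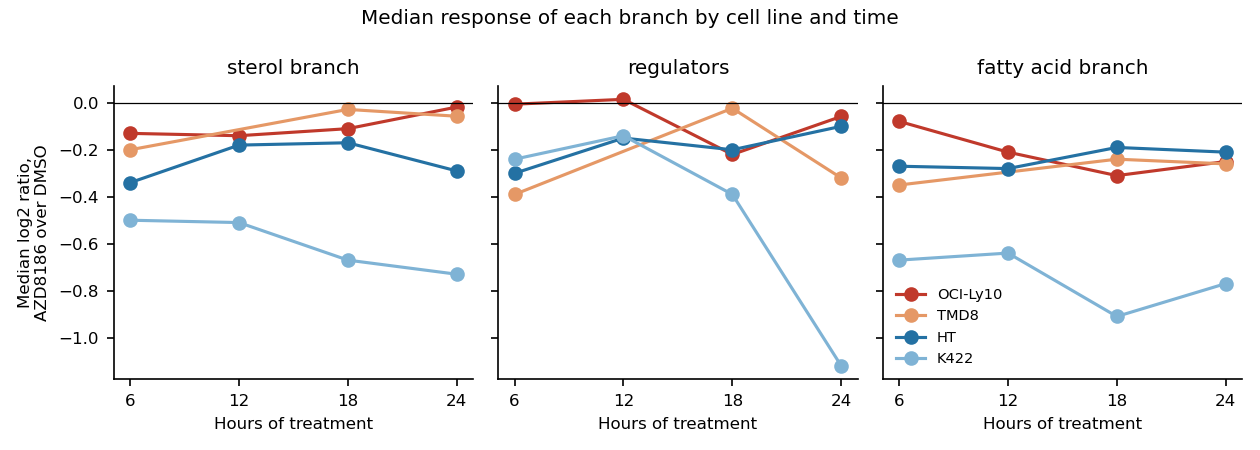
Median log2 ratio of AZD8186 over DMSO (y axis) of the genes of each branch against hours of treatment (x axis), 1 line per cell line. K422 lies lowest in the sterol branch at every time, from -0.50 at 6 h to -0.73 at 24 h.

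By time point, the K422 sterol medians were lower at 18 and 24 h than at 6 and 12 h. The sterol median in K422 was -0.50, -0.51, -0.67 and -0.73 at 6, 12, 18 and 24 h, while the medians of all genes in the same pairs were between 0 and 0.0094. In HT it was -0.34, -0.18, -0.17 and -0.29. In OCI-Ly10 it was -0.13, -0.14, -0.11 and -0.018, and in TMD8 -0.20, -0.028 and -0.057 at 6, 18 and 24 h. The fatty acid median did not fall steadily, at -0.67, -0.64, -0.91 and -0.77 in K422, and -0.08, -0.21, -0.31 and -0.25 in OCI-Ly10. Some K422 genes were lowest at 24 h, such as ACAT2 at -0.27, -0.56, -0.82 and -1.12 and SCD at -0.76, -1.14, -1.34 and -1.53 (log2 ratio per pair). Others were lowest at 6 h, such as LSS at -0.91, -0.70, -0.72 and -0.72 and SREBF1 at -1.26, -1.20, -1.14 and -1.18. With 1 pair per time this order within K422 was not tested. Across both GCB lines the response at 18 to 24 h minus that at 6 to 12 h passed for 0 of 32 genes by edgeR (0% of all genes in either direction) and for 0 by DESeq2, and 2 had an unadjusted p under 0.05. In ABC it passed for 0 of 32 genes by edgeR (0% of all genes) and for 0 by DESeq2, and 7 had an unadjusted p under 0.05. For DESeq2 and for the unadjusted counts, shares over all genes are not given.

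The controls themselves changed with culture time. Over the 15 DMSO libraries 6 of 33 genes rose from 6 to 24 h and 1 fell, against 2.9% higher and 4.33% lower among 12596 genes. MSMO1 rose by 0.67 ± 0.12 (adjusted p = 0.00365, edgeR), DHCR7 by 0.55, SREBF1 by 0.51, CYP51A1 by 0.46, SQLE by 0.43 and ACACA by 0.33. FDPS fell by 0.41 ± 0.10 (adjusted p = 0.0195), a call lost without the HT or the K422 6 h library, and without the TMD8 18 h library 10 genes rose. On the log2(TPM + 1) scale, where the median of all genes was 0.16, 19 rose and 0 fell. Shares over all genes are not given for that scale or for the fits without a library.

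Genes of neighboring pathways moved in both directions, and their counts stand beside shares over all genes of 23.5% lower and 25.9% higher in GCB and of 13.8% and 15.3% in ABC. Several of these counts were close to or below those shares, and nothing particular to a list is read from them. Of 10 genes of SREBP processing and turnover, 4 fell and 3 rose in GCB, and 1 fell and 1 rose in ABC. ERLIN2, a protein of the endoplasmic reticulum membrane, fell by 0.16 in GCB and by 0.31 in ABC, and RNF139, a ubiquitin ligase of the same membrane, fell by 0.22 in GCB. Of 12 genes that use isoprenoids, 5 fell and 1 rose in GCB and 3 fell and 1 rose in ABC. NUS1, a subunit of the dolichol-making enzyme, fell by 0.45 and 0.27 and PDSS1, which builds the ubiquinone side chain, by 0.59 and 0.41 in GCB and ABC, whereas its partner PDSS2 rose by 0.43 in ABC.

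Of 12 genes of sterol export, storage and lysosomal release, 11 were tested in GCB, where 2 fell and 5 rose, and 10 in ABC, where 0 fell and 1 rose. The cholesterol exporter ABCA1 rose by 2.41 ± 0.26 in K422 (adjusted p = 1.02e-05, edgeR). NPC2, which carries cholesterol out of lysosomes, rose by 0.42 in GCB and 0.52 in ABC, OSBP rose by 0.14 and LPCAT3 fell by 0.29 in GCB. Of the other fatty acid and glycerolipid genes, 8 of 20 tested fell and 3 rose in GCB, and 3 of 21 fell and 3 rose in ABC. GPAM, which starts glycerolipid synthesis, fell by 0.55 in GCB and had a value of 0.052 in ABC (adjusted p = 0.683). ACSL4 fell by 0.37 in GCB, ACSL1 fell by 0.58 and ELOVL7 rose by 0.46 in ABC. Of 15 fatty acid oxidation genes tested, 0 fell and 6 rose in GCB and 0 fell and 5 rose in ABC, with medians of 0.081 and 0.12 against 0.025 and 0.0072 over all genes. ACADS, a short-chain acyl-CoA dehydrogenase, rose by 0.49 and 0.36, CPT2 rose by 0.21 in GCB, and SLC25A20 and ECI1 rose by 0.31 and 0.28 in ABC.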

How the data were processed

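Total RNA was sequenced from 30 libraries of 4 DLBCL lines. Per the labels and the study's methods, the authors aligned reads with HISAT2 and quantified RefSeq transcripts on GRCh38.p12 with RSEM. For both tools the version is not given in the sources read. Deposited by the authors were an expected count, a TPM and an FPKM value per gene. The deposited TPM values were used for levels, and the deposited FPKM values were not used. The controls received DMSO per the labels, while the series text calls them untreated.

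After rounding, expected counts entered the quasi-likelihood test of edgeR (release 4.0.16, under R 4.3.3), with TMM scaling, the default expression filter and Benjamini-Hochberg adjustment over all genes tested, with a threshold of 0.05. Standard errors were the log2 fold change divided by the square root of the test's F statistic. Such a value can be too small where counts are low, so the text gives none for FADS2. Subtype fits had cell line and time point as terms. Fits per line, and differences between lines, used all 30 libraries with the pair of line and time as a block. Ratios per pair were differences of log2 CPM with a prior count of 2. Scripts were tested on simulated data. Alternatives were DESeq2 1.42.0, limma 3.58.1 on log2(TPM + 1) and log2(TPM + 0.1), other filters and scalings, and leaving out pairs.

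Pairs come from the line and time in the labels. Libraries of the same line and time deviated together with r from -0.02 to 0.29, over 0.1 in 12 of 15 pairs. The 33 genes, the named-gene rule (all 33, plus the 2 smallest p in each subtype from each of 5 neighboring lists) and the lists were chosen with earlier results of these data known. A gene that this rule names is not reported here. Depth was 15820230 to 23579029 counts per library. Gene positions were taken from GENCODE 29 and promoters from RefSeq.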

Additional observations from a re-analysis of the deposited data

Results flagged for a closer look

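In 3 sets of pair ratios (log2, AZD8186 over DMSO) one pair lay far from the rest. Among 65 sets examined about 3.25 would be expected by chance at 1 in 20. INSIG1 in the ABC pairs was -1.26 in TMD8 at 6 h, where the others ranged from -0.38 to 0.055. FASN in the ABC pairs was -1.27 in the same TMD8 6 h pair, against -0.62 to -0.29. STARD4 in the GCB pairs was -1.48 in K422 at 24 h, against -0.64 to -0.14.

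The response to AZD8186 differed between the mean of the GCB lines and that of the ABC lines in 16 genes by edgeR's quasi-likelihood test of the difference (GCB minus ABC, log2). The test compares these lines only, and the shares over all genes are given above. In the sterol branch the differences were -0.91 for LSS, -0.64 for TM7SF2, -0.61 for MSMO1, -0.44 for HMGCS1, -0.43 for EBP, -0.39 for MVD, -0.38 for SQLE, -0.29 for FDFT1, -0.25 for IDI1, -0.23 for PMVK and -0.22 for MVK. In the fatty acid branch they were -0.74 for SCD, -0.50 for ELOVL6, -0.46 for FADS1 and -0.21 for ACLY. SCAP differed by 0.44. For ACLY, FADS1, HMGCS1, MVK and IDI1 the value in HT was close to that of an ABC line or between those of the ABC lines.

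The response also differed between the GCB lines in 17 genes (K422 minus HT, log2). In the sterol branch the differences were -0.66 for DHCR7, -0.53 for ACAT2, -0.51 for LSS, -0.45 for both MVK and IDI1, -0.36 for both MSMO1 and NSDHL, -0.35 for both FDPS and SQLE and -0.34 for HSD17B7. SREBF1 differed by -1.0. In the fatty acid branch they were -1.17 for FADS2, -0.80 for FADS1, -0.60 for SCD, -0.57 for FASN, -0.43 for ELOVL6 and -0.38 for ACLY.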

How the results depend on the processing

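Counts are genes lower, then higher, by edgeR unless another tool is named. Shares over all genes are not given for these alternatives, so a count here lacks a background of its own. With treatment as the only term GCB gave 8 and 0 and ABC 0 and 0. At an adjusted p under 0.01 ABC gave 4 and 2, TMD8 3 and 1, HT 7 and 0, with 4 lower in OCI-Ly10, 9 for GCB minus ABC and 7 for K422 minus HT. On log2(TPM + 1), where the median of all genes moved to -0.15 in ABC, -0.11 in OCI-Ly10, -0.14 in TMD8, 0.10 for GCB minus ABC and 0.16 over culture time, limma gave 23 and 1 in ABC (the same counts with 0.1 added), 17 lower in OCI-Ly10, 18 and 1 in TMD8, 0 higher in HT, 6 lower for GCB minus ABC and 0 and 19 over culture time. PMVK in TMD8 reversed there, at -0.22 (adjusted p = 0.0292, limma) against 0.0052, and the cause was not tested. Fitted alone, TMD8 gave 2 and 1 and HT 25 and 2. HT gave 0 higher with DESeq2 or its size factors, and culture time 2 lower with DESeq2.

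With the pair as a replicate block GCB gave 28 and 1 and ABC 13 and 4. Without the replicate block TMD8 gave 4 and 1, HT 6 and 0, OCI-Ly10 6 and 3, K422 26 and 1, GCB minus ABC 11 and 1, and K422 minus HT 5 and 0.

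Leaving out 1 pair at a time gave 26 to 28 lower and 1 higher in GCB, 7 to 14 and 2 to 4 in ABC, 4 to 13 and 2 to 3 in OCI-Ly10, 4 to 7 and 1 to 2 in TMD8, 5 to 18 and 0 to 1 in HT, and 26 to 27 and 1 in K422. It gave 10 to 16 and 1 to 2 for GCB minus ABC, 9 to 19 and 0 to 2 for K422 minus HT, and 0 and 0 to 1 for TMD8 minus OCI-Ly10. Leaving out 1 DMSO library gave 0 to 1 and 4 to 10 over culture time. Over all alternatives 6853 of 7370 single-gene values kept their side of the threshold, 356 lost and 160 gained a call, and 1 reversed. Among those kept were 384 (GCB) and 352 (ABC) values of the late minus early response and 639 of TMD8 minus OCI-Ly10. The main fit called no gene in these 3 comparisons, so the total does not measure how stable the calls were. Low counts limit the precision for DHCR7 in OCI-Ly10, ACSS2 in K422 and FADS2 in TMD8 and HT.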
